A study of Drosophila melanogaster with 36 samples.

Results

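The evening and the morning transcriptomes of indirect flight muscle (IFM), the fibrillar muscle that powers the wings of Drosophila melanogaster, were compared across 6 groups of flies. The evening, called dusk here, was ZT11 and ZT15 (8 PM and 12 AM), and the morning, called dawn, was ZT23 and ZT3 (8 AM and 12 PM). ZT is the number of hours since lights on, and the lights were on from ZT0 to ZT12. The comparison used 11 dusk and 11 dawn libraries of the 36 in the series, chosen by their labelled clock time. The 12 libraries of ZT7 and ZT19 lay outside it, and the study's 2 outlier libraries were not used, the ZT11 library of WT-TRF and the ZT23 library of Sk2-ALF. Dusk and dawn each held a time in the light and a time in darkness, but without those libraries the balance was not exact. Dusk had 5 libraries in light and 6 in darkness, and dawn had 6 in light and 5 in darkness. Under time-restricted feeding, food was present in 2 of 5 dusk and 3 of 6 dawn libraries.

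All flies were female and were sampled at 3 weeks of age, and each library was made from the pooled IFM of 10 flies. WT flies were Canton-S on a regular diet, HFD flies were Canton-S on a high-fat diet that contained coconut oil, and Sk2 flies were mutant for Sphingosine kinase 2 and ate the regular diet. Each of these models was kept under ad libitum feeding (ALF), with food at all hours, or under time-restricted feeding (TRF), with food in the light phase only. Each group had 1 library per time point. In the fit of dusk against dawn, the spread behind the p-values had 15 residual degrees of freedom. Of these, 5 came from differences between groups in the dusk-dawn change. The other 10 came from differences between the time points joined in a phase of a group. In the comparisons at matched light below, each time point had its own term. Their spread came only from differences between groups in the change over time. Each fit carried the group as a term.

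The circadian clock of the fly is a feedback loop. The transcription factors Clk and Cyc switch on per and tim, whose proteins return to the nucleus and shut Clk and Cyc off, while vri and Pdp1 feed back on Clk itself. Peripheral tissues, muscle included, carry the same loop, and its outputs in other tissues include detoxification enzymes and enzymes of lipid metabolism.

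Library totals ranged from 7097757 to 30682673 counts at dusk (median 14442930) and from 5432971 to 22107454 at dawn (median 11195517). The Sk2 transcript was at 1.15 to 5.79 CPM (counts scaled to a common library size) in the 11 Sk2 libraries kept and at 4.93 to 15.9 CPM in the 23 WT and HFD libraries kept, so the groups overlapped, and the library labelled WT-TRF ZT11 that was left out stood at 28.2 CPM. The 4 flight muscle markers (Act88F, fln, TpnC4, salm) summed to 2848 to 10672 CPM at dusk and to 2106 to 9047 CPM at dawn. Transcripts of other tissues were also present. The 8 fat body markers summed to 15630 to 41035 CPM at dusk and 14091 to 49202 CPM at dawn, the 7 gut markers to 307 to 7616 CPM and 118 to 4423 CPM, the 8 neuronal markers to 97.0 to 487 CPM and 114 to 828 CPM, and the 8 photoreceptor markers to 45.8 to 115 CPM and 67.0 to 179 CPM. None of the markers tested was called between dusk and dawn. Log2 fold changes were negative for 7 of 8 neuronal, 6 of 7 photoreceptor, 3 of 3 tracheal and 4 of 5 haemocyte markers. They were also negative for 3 of 4 glial, 4 of 7 fat body and 4 of 6 gut markers and the 1 eggshell marker tested. All 4 flight muscle markers had positive ones (median 0.27). Over all 10076 genes tested, 5006 were negative. Each listed marker had counts in at least 1 of the 22 libraries. The part of other tissues in the differences below was not tested, and in pooled tissue fewer cells of a type cannot be told apart from less RNA per cell.

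Of 10076 genes tested, 27 (0.268%) differed between dusk and dawn at an adjusted p under 0.05, which is what called means below (edgeR quasi-likelihood F-test with the group as block, Benjamini-Hochberg adjustment over all genes tested). Among them 14 (0.139%) were higher at dusk and 13 (0.129%) were higher at dawn. They included the clock genes tim and Clk, the detoxification gene Ugt35b, the hormone esterase gene Jhe, the nutrient-signalling genes foxo and Sesn, and the nuclear receptor gene Hr38. All 27 moved in the same direction in all 6 groups, as 824 of the 10076 genes did, and the median log2 fold change over all genes was 0.0015. Without adjustment, 1365 genes (13.5%) had a p under 0.05. The study's own threshold asks for a higher level at least 25% above the lower one with an unadjusted p of at most 0.05. It was passed by 917 genes (9.1%), of which 458 (4.55%) were higher at dusk and 459 (4.56%) were lower.

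The count of calls depended on which libraries were in the fit. It was 13 with both left-out libraries put back, and 200 when the 12 libraries of ZT7 and ZT19 were added to help estimate the spread. Leaving out 1 library gave between 9 and 74 calls. The count fell below 18 without WT-ALF ZT11 (14), HFD-ALF ZT15 (12), Sk2-ALF ZT3 (9), WT-TRF ZT15 (10), WT-TRF ZT3 (17), HFD-TRF ZT15 (17), HFD-TRF ZT3 (15), HFD-TRF ZT11 (11), Sk2-TRF ZT3 (13) or Sk2-TRF ZT11 (16). It rose above 27 without HFD-ALF ZT3 (42), Sk2-ALF ZT15 (74), Sk2-ALF ZT11 (51), HFD-TRF ZT23 (33), Sk2-TRF ZT15 (32) or Sk2-TRF ZT23 (48). Of the 27 genes, 7 were called in all 22 of these fits, and they were Ugt35b, Clk, Jhe, tim, Tab2, CG4404 and Sgt1. The direction of all 27 held in all alternatives in which they were tested. The alternatives reuse libraries that chose the genes, so this agreement is not independent of the choice.

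The core clock list of 8 genes held 1 call in each direction. Clk (chr3L:7763233-7775603, dm6, minus strand) lay between 3.36 and 15.03 CPM at dusk with a median of 9.41 CPM, and between 12.2 and 29.7 CPM at dawn with a median of 21.8 CPM. The groups of libraries overlapped only between 12.2 and 15.03 CPM, with the HFD libraries the highest at dusk and the Sk2-TRF library of ZT3 the lowest at dawn. Clk was 2.45-fold lower at dusk (log2 fold change -1.29 ± 0.14 SE, adjusted p = 0.000203).

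Transcripts of tim (chr2L:3493986-3508119, minus strand), the light-sensitive partner of Per, ran the other way. They lay at 176 to 683 CPM at dusk (median 313) and at 64.9 to 301 CPM at dawn (median 128), 2.20-fold higher at dusk (log2 fold change 1.14 ± 0.17 SE, adjusted p = 0.00615). The Sk2 libraries were the highest in each phase: the Sk2 dusk libraries were at 416 to 683 CPM, and Sk2-TRF at ZT23 and ZT3 and Sk2-ALF at ZT3 held the top of the dawn range. Within each group the 2 phases differed in the same direction, from 0.85 log2 units in Sk2-ALF to 1.94 in WT-TRF.

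The other repressor of the loop, per, had a log2 fold change of 0.66 ± 0.17 SE, with 16.99 to 43.5 CPM at dusk and 6.88 to 34.1 CPM at dawn, and did not pass the test over all genes (adjusted p = 0.0855). The feedback regulators vri (0.37 ± 0.14, adjusted p = 0.240), Pdp1 (0.34 ± 0.13, adjusted p = 0.233) and cwo (0.24 ± 0.14, adjusted p = 0.480) had positive log2 fold changes that were not called, and the photoreceptor gene cry had a negative one (-0.55 ± 0.18, adjusted p = 0.173). The partner of Clk, cyc, had a log2 fold change of 0.05 ± 0.11 (adjusted p = 0.891), with medians of 14.99 CPM at dusk and 15.5 CPM at dawn. The 12 listed clock kinases and degradation factors held no call, with 9 of 12 positive and a median log2 fold change of 0.11.

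**Figure D1:**
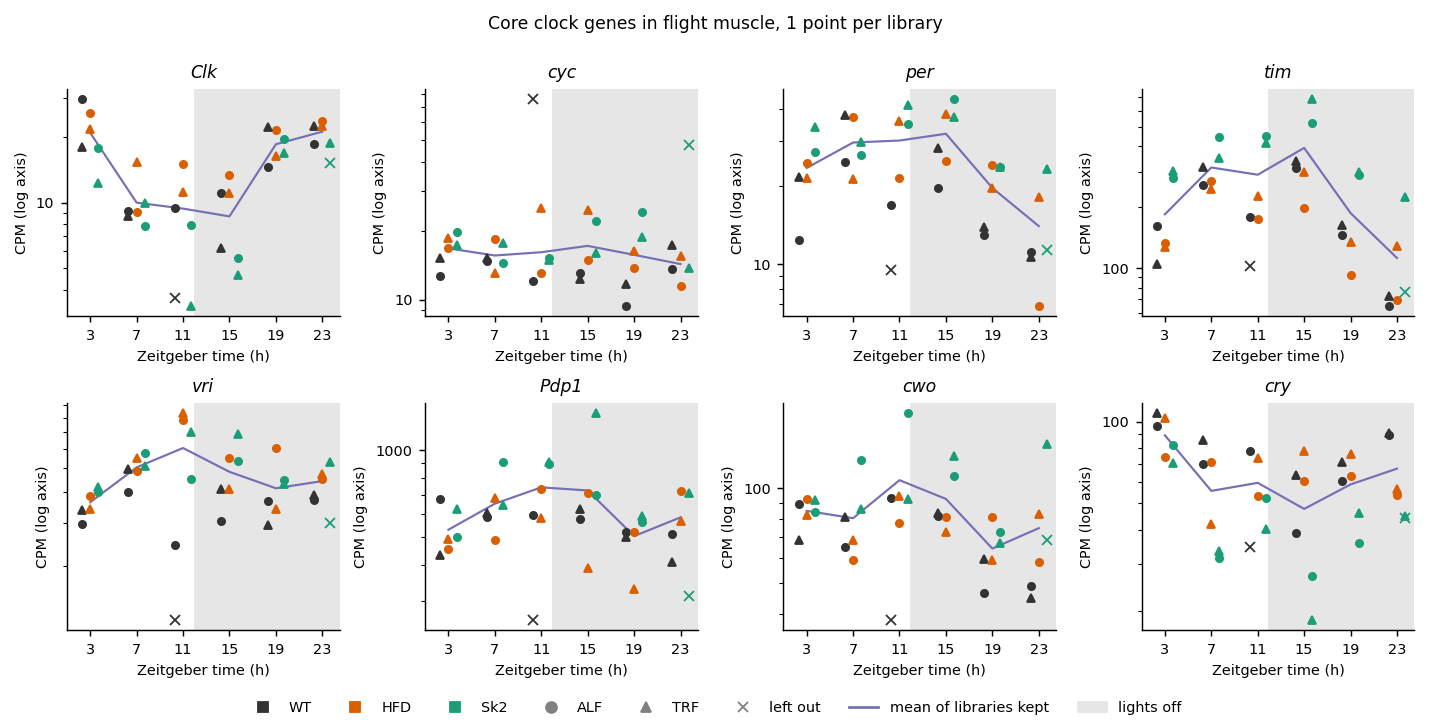
Level of the 8 core clock genes in CPM on a log axis against zeitgeber time in hours, with 1 point per library, the model by colour, the regimen by shape, the 2 left-out libraries as crosses and the mean of the libraries kept as a line. Clk is low from ZT7 to ZT15 and high from ZT19 to ZT3, tim runs the other way, and the means of cyc lie between 14.3 and 17.2 CPM.

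Among the 13 genes that were higher at dawn, Ugt35b (Ugt35B1 in current annotation, chr3R:11168503-11170246, minus strand) had the smallest p. It encodes a UDP-glycosyltransferase, an enzyme class that conjugates lipophilic compounds to sugars. It lay at 21.6 to 62.9 CPM in the 11 dusk libraries (median 48.6) and at 92.6 to 302 CPM in the 11 dawn libraries (median 149), so that all dusk libraries were below all dawn libraries. Over all genes tested 2 showed such a gap in that direction, Ugt35b and CG4404, and none in the other. Ugt35b was 3.52-fold lower at dusk (log2 fold change -1.82 ± 0.17 SE, adjusted p = 3.86e-05). Its neighbour 522 bases away on the same strand, Ugt86De, had a log2 fold change of -1.28 (adjusted p = 0.122) at a mean of 2.18 CPM. Between ZT11 and ZT3, both in light, Ugt86De was called lower (-1.59, adjusted p = 0.0152). With both left-out libraries put back it was still called there (adjusted p = 0.0297). Between ZT15 and ZT23, both in darkness, its log2 fold change was -1.42. How reads were shared between such related genes was not tested. The other 30 UDP-glycosyltransferases tested held no call between dusk and dawn.

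Jhe encodes juvenile hormone esterase, which breaks down juvenile hormone. It was lowly expressed, at 0.575 to 3.89 CPM at dusk (median 1.28) and 1.84 to 20.4 CPM at dawn (median 7.69), and was 5.01-fold lower at dusk (log2 fold change -2.32 ± 0.32 SE, adjusted p = 0.00307). The overlap of the phases came from the Sk2-TRF libraries, whose dawn values of 1.84 and 2.19 CPM were within the dusk range of the other groups.

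Also called higher at dawn were bgm, foxo and SPR. The transcript of bgm, a very-long-chain acyl-CoA synthetase, lay at 22.1 to 151 CPM at dusk and 93.7 to 353 CPM at dawn (log2 fold change -1.27 ± 0.22 SE, adjusted p = 0.0221). The Sk2 dusk libraries, at 22.1 to 39.2 CPM, were the lowest of all. The transcript of foxo, the transcription factor that insulin signalling keeps out of the nucleus, lay at 86.5 to 169 CPM at dusk and 103 to 227 CPM at dawn (log2 fold change -0.58 ± 0.11 SE, adjusted p = 0.0300). SPR, the receptor for sex peptide and myoinhibitory peptides, had a log2 fold change of -1.14 ± 0.23 SE (adjusted p = 0.0409) at 3.63 to 17.7 CPM against 7.97 to 40.3 CPM.

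CG4404 lay at 29.8 to 42.6 CPM at dusk and at 43.4 to 71.4 CPM at dawn (log2 fold change -0.61 ± 0.09 SE, adjusted p = 0.00615). The other named genes of this direction were CG31189, CG9649, CG7149, CG1791 and CG31199, with log2 fold changes from -0.72 to -0.55 and adjusted p-values from 0.0247 to 0.0499. Cpr49Ab, a cuticle protein gene, fell by 1.75 on the log2 scale at a mean of 7 counts per library.

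**Figure D2:**
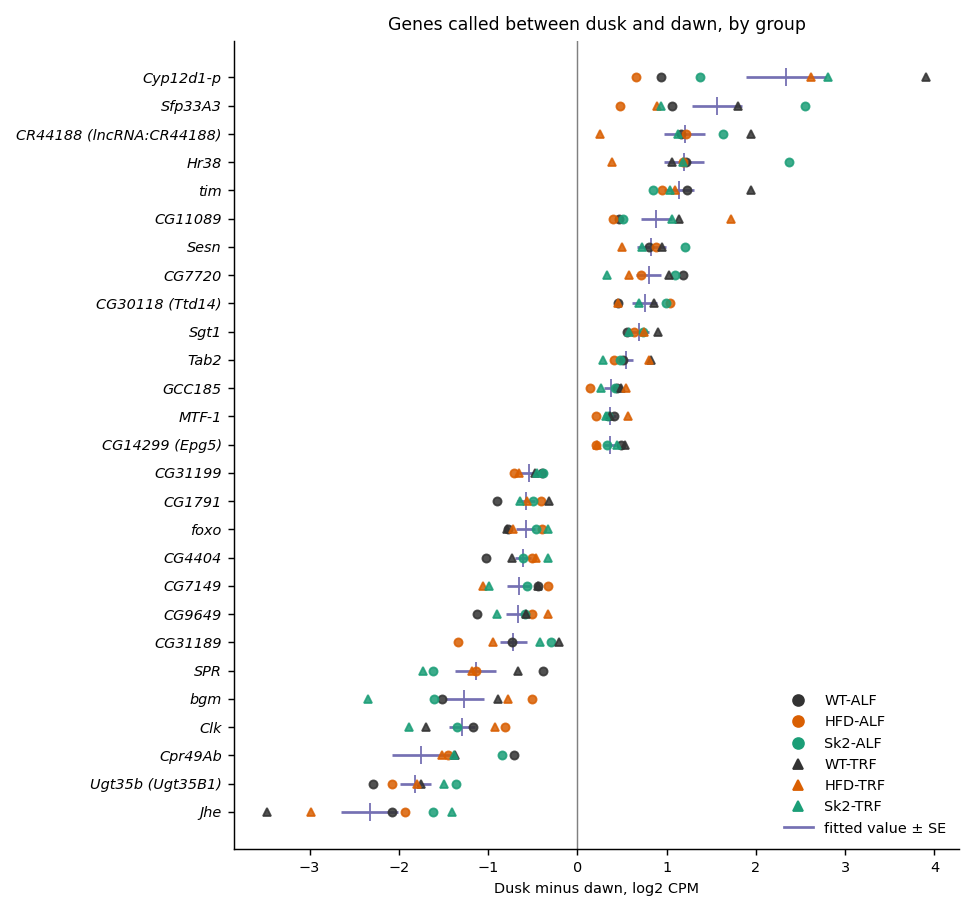
Difference between the mean log2 CPM at dusk and at dawn in each of the 6 groups for the 27 called genes, with the fitted log2 fold change and its SE as a bar. All group values of a gene lie on the same side of 0, and the spread between groups is widest for Cyp12d1-p, Jhe, Sfp33A3, bgm and Hr38.

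Among the 14 genes that were higher at dusk, those with the highest levels were Sesn, CG30118, CG7720 and tim. Sesn encodes Sestrin, a stress-induced inhibitor of TOR complex 1. It lay at 844 to 2296 CPM at dusk (median 1701) and 626 to 1597 CPM at dawn (median 965), 1.78-fold higher at dusk (log2 fold change 0.83 ± 0.16 SE, adjusted p = 0.0347). The 4 lowest dusk libraries, 3 of them Sk2, lay within the dawn range, and the 5 libraries of ZT11 were at 1372 to 2296 CPM.

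CG30118 (Ttd14 in current annotation), known from photoreceptors as a factor for the movement of the TRPL channel, was at 937 to 2228 CPM at dusk and 695 to 1328 CPM at dawn (log2 fold change 0.75 ± 0.14 SE, adjusted p = 0.0300). CG7720, which RefSeq lists with the synonym dSLC5A1 of a solute carrier family, was at 374 to 1006 CPM at dusk and 299 to 513 CPM at dawn (log2 fold change 0.80 ± 0.14 SE, adjusted p = 0.0232). Its neighbour 363 bases away on the same strand, CG14299 (Epg5, an autophagy factor), was also called, with a smaller log2 fold change of 0.37 ± 0.07 SE (adjusted p = 0.0300).

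Hr38 (chr2L:20683462-20714588, minus strand) encodes the only NR4A nuclear receptor of the fly, known in neurons as a gene that responds to activity. It lay at 28.4 to 180 CPM at dusk (median 60.7) and 15.6 to 84.7 CPM at dawn (median 30.9), 2.29-fold higher at dusk (log2 fold change 1.19 ± 0.22 SE, adjusted p = 0.0300). The highest dawn libraries were those of HFD, at 61.4 to 84.7 CPM, and they overlapped the dusk values of the other models. The noncoding RNA gene CR44188 overlaps Hr38 on the opposite strand and was called with nearly the same log2 fold change, 1.204 ± 0.23 SE, at a mean of 35.6 counts. Reads were counted by strand, and how far the antisense counts are independent of those of Hr38 was not tested.

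The remaining genes higher at dusk covered several functions. Sgt1, a co-chaperone of Hsp90, was at 61.9 to 115 CPM at dusk and 38.3 to 62.6 CPM at dawn (log2 fold change 0.69 ± 0.11 SE, adjusted p = 0.0108). Tab2, an adaptor of the kinase Tak1 in immune and JNK signalling, was at 54.6 to 103 CPM and 36.9 to 57.4 CPM (log2 fold change 0.54 ± 0.08 SE, adjusted p = 0.00615). For Sgt1 only Sk2-TRF at ZT23 reached the dusk range, and for Tab2 only the ZT3 libraries of HFD-ALF and HFD-TRF did. CG11089, with the RefSeq synonym atic for the last step of purine synthesis, had a log2 fold change of 0.89 ± 0.17 SE (adjusted p = 0.0310). The golgin gene GCC185 and the metal-responsive factor gene MTF-1 each had a log2 fold change of 0.37. At under 50 counts on average, Sfp33A3 (1.56 ± 0.28 SE at a mean of 7.14 counts) and the cytochrome P450 gene Cyp12d1-p (2.33 ± 0.45 SE at 43.9 counts) were called too. Cyp12d1-p has a near-identical copy, Cyp12d1-d, so its counts are uncertain. Sfp33A3 lay at 0.0993 to 1.31 CPM, around the floor of 3 counts (0.0978 to 0.552 CPM). It overlaps Pde1c on the opposite strand (log2 fold change -0.35, not called), and how far their counts are independent was not tested.

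**Figure D3:**
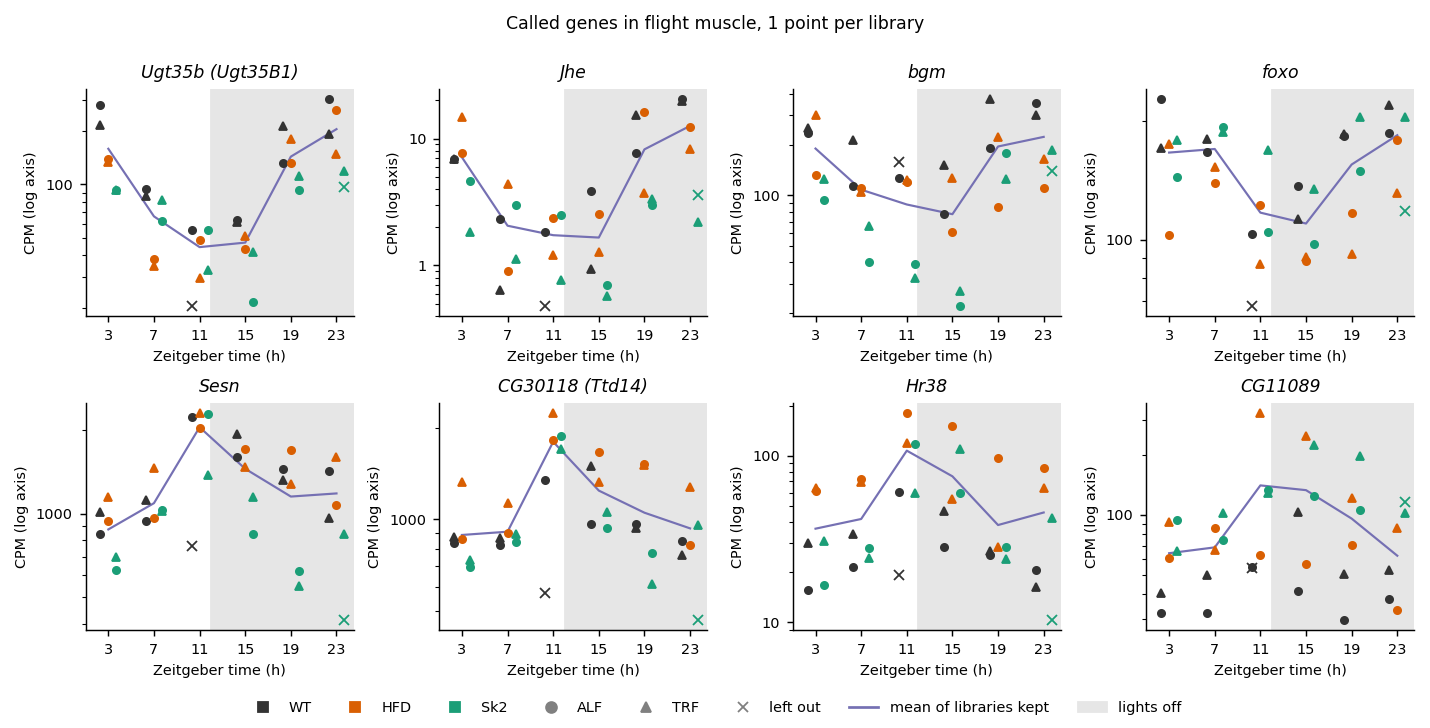
Level in CPM on a log axis against zeitgeber time for 4 called genes that were higher at dawn (Ugt35b, Jhe, bgm, foxo) and 4 that were higher at dusk (Sesn, CG30118, Hr38, CG11089), drawn as in the plot of clock genes. Ugt35b and Jhe are low from ZT7 to ZT15, while Sesn, CG30118 and Hr38 have their highest mean at ZT11.

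The libraries at ZT7 and ZT19, which chose none of these genes, placed the differences on the day. The mean Clk level fell from 20.9 ± 6.26 CPM (SD, n = 6) at ZT3 to 10.0 ± 2.70 CPM (SD, n = 6) at ZT7 and was back at 18.5 ± 3.09 CPM (SD, n = 6) at ZT19. Ugt35b had the same course, with 159 ± 74.6 CPM at ZT3, 66.1 ± 25.4 CPM at ZT7, 47.0 ± 15.3 CPM at ZT15 and 144 ± 44.7 CPM at ZT19 (SD, n = 6 each). Jhe was at 2.06 ± 1.45 CPM at ZT7 and 8.23 ± 6.12 CPM at ZT19 (SD, n = 6 each). For these 3 genes ZT7 was thus on the side of dusk and ZT19 on the side of dawn.

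Sesn, CG30118 and Hr38 had narrower courses. Sesn averaged 1090 ± 190.2 CPM (SD, n = 6) at ZT7, 2045 ± 390.2 CPM (SD, n = 5) at ZT11 and 1151 ± 463 CPM (SD, n = 6) at ZT19. Hr38 averaged 41.7 ± 23.2 CPM at ZT7 (SD, n = 6), 107 ± 49.8 CPM at ZT11 (SD, n = 5) and 38.3 ± 28.9 CPM at ZT19 (SD, n = 6). Of the 14 genes higher at dusk, 9 had their highest mean, after centring within groups, at ZT11 and 5 at ZT15. Of the 13 genes higher at dawn, 7 peaked at ZT23, 5 at ZT3 and 1 at ZT7. At ZT7, 22 of the 27 genes lay between their dusk and dawn means and 12 were nearer to dusk, and at ZT19, 25 lay between and 3 were nearer to dusk. Over all 10076 genes 3487 lay between the means at ZT7 and 3586 at ZT19. The 27 genes were chosen for a gap between dusk and dawn, so a larger share of them would lie within it. The count nearer to dusk was not taken over all genes.

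Dusk and dawn were then compared at matched light, ZT11 against ZT3 with the lights on and ZT15 against ZT23 with the lights off. All 27 genes had the same sign in both contrasts. These contrasts are parts of the comparison that chose the genes, so agreement in sign was largely fixed by that choice. Of the 27 genes, 3 were called in both, namely Ugt35b (log2 fold change -1.63 ± 0.24 SE in light and -2.02 ± 0.23 SE in darkness), Clk (-1.21 ± 0.21 SE and -1.37 ± 0.21 SE) and Jhe (-1.82 ± 0.43 SE and -2.82 ± 0.42 SE). In darkness 6 genes were called in all (0.0595%), with tim and per higher (0.0198%) and these 3 and CG12769 lower (0.0397%), and 772 (7.66%) had an unadjusted p under 0.05. The log2 fold change of tim was 1.73 ± 0.17 SE in darkness (adjusted p = 0.000169) and 0.58 ± 0.16 SE in light (adjusted p = 0.0541). That of per was 1.16 ± 0.18 SE in darkness (adjusted p = 0.0193) and 0.31 ± 0.18 SE in light (adjusted p = 0.356).

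In CPM, tim averaged 393 ± 177 (SD, n = 6) at ZT15 and 112 ± 68.6 (SD, n = 5) at ZT23, but 289 ± 133 (SD, n = 5) at ZT11 and 184 ± 84.6 (SD, n = 6) at ZT3. The difference between the dark and the light contrast was tested as well, a test added after these values were seen. No gene passed it in edgeR (smallest adjusted p = 0.155, 1399 genes or 13.9% at an unadjusted p under 0.05). For tim it was 1.15 log2 units (adjusted p = 0.155) and for per 0.85 (adjusted p = 0.193), so neither was shown to differ between light and darkness. The dark count ranged from 2 to 9 with 1 library left out, and was 2 without Sk2-ALF ZT15, WT-TRF ZT15 or WT-TRF ZT23 and 3 without HFD-TRF ZT15.

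**Figure D4:**
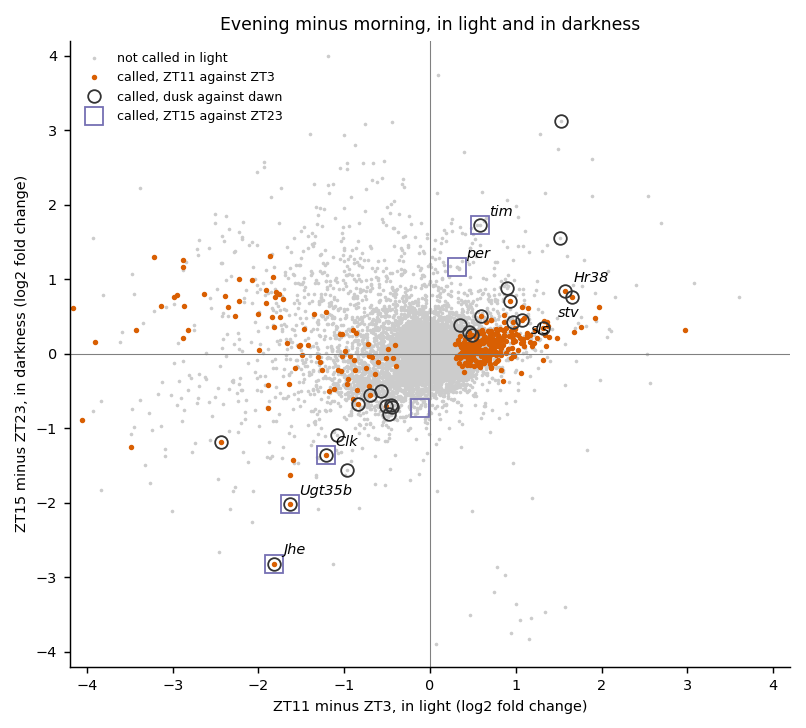
Log2 fold change of ZT11 against ZT3 in light and of ZT15 against ZT23 in darkness for all genes tested, with the genes called in each contrast marked and 8 genes beyond the axes not drawn. The genes called between dusk and dawn lie in the lower left and upper right, tim and per lie nearer to the vertical axis, and most genes called in light lie to the right, close to the horizontal axis.

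In light, 355 genes were called (3.52%), 267 higher at ZT11 (2.65%) and 88 lower (0.873%), and 1982 (19.7%) had an unadjusted p under 0.05. The genes higher at ZT11 had a median log2 fold change of 0.64 in light and of 0.12 in darkness, where 205 were positive and 62 negative. The 88 lower genes had a median of -1.59 in light and of 0.08 in darkness, where 41 were negative. Both sets were chosen by their values in light, so smaller differences in darkness were largely fixed by that choice. The test of the dark minus light difference called no gene (smallest adjusted p = 0.155, edgeR). Over all 10076 genes, 4934 were positive in darkness. Of the 14 genes in the heat shock and chaperones list, 8 were positive in light and 2 were called, stv (a co-chaperone of the BAG family) and the mitochondrial Hsc70-5. Outside that list, and chosen for mention after their values were seen, unc-45 (a chaperone of myosin), Sgt1 and CG7945 (RefSeq synonym BAG2) were called higher. The level of stv was 1386 ± 571 CPM (SD, n = 5) at ZT11 against 568 ± 300.4 CPM (SD, n = 6) at ZT3, and its 5 values at ZT11, from 943 to 2282 CPM, overlapped those of ZT3 in 1 library. Its log2 fold change was 1.38 ± 0.18 SE in light (adjusted p = 0.00442) and 0.37 ± 0.18 SE in darkness (adjusted p = 0.657). For unc-45 the 5 values at ZT11 were 861 to 1315 CPM and the 6 at ZT3 were 366 to 765 CPM (2.37-fold, adjusted p = 0.00702). How many of all genes had such a gap between ZT11 and ZT3 was not counted.

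Of the 24 sarcomere genes tested 4 were called higher at ZT11 in light, beside 267 of all 10076 genes (2.65%). These 4 were called in 15 to 17 of the 22 fits with 1 library left out. The giant elastic proteins sls and bt had log2 fold changes of 1.07 ± 0.25 SE (adjusted p = 0.0323) and 0.83 ± 0.18 SE (adjusted p = 0.0250), Unc-89, the fly obscurin, 0.76 ± 0.17 SE (adjusted p = 0.0279) and the paramyosin gene Prm 0.77 ± 0.16 SE (adjusted p = 0.0217). Among the most abundant transcripts of the muscle, sls averaged 13789 ± 5222 CPM (SD, n = 5) at ZT11 and 6980 ± 970.1 CPM (SD, n = 6) at ZT3. In darkness these 4 genes had log2 fold changes from -0.22 to 0.14, and none of the 24 was called. Genes outside the lists, chosen for mention after their values were seen, were the formin gene Fhos (0.98 ± 0.19 SE), the actin oxidase gene Mical (1.08 ± 0.20 SE), the myosin V gene didum (1.22 ± 0.19 SE) and the fos gene kay (0.96 ± 0.18 SE), with adjusted p-values in light from 0.00960 to 0.0172.

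No marker of the muscle or of another tissue was called in these contrasts, and their values are given because several lists had medians far from 0. The 4 flight muscle markers had a median log2 fold change of 0.73 in light, with 4 of 4 positive, and of -0.18 in darkness, with 1 of 4 positive. Their summed level was 2106 to 7660 CPM at ZT3 (median 3754) and 2848 to 10672 CPM at ZT11 (median 5880). In darkness it was 2985 to 10025 CPM at ZT15 (median 7199) and 3352 to 9047 CPM at ZT23 (median 5965). The median of the sum was thus higher at ZT15 than at ZT23, unlike the median log2 fold change. The 7 photoreceptor markers tested, led by the rhodopsin and arrestin genes, had medians of 0.94 and -3.36, with 6 of 7 positive in light and 0 of 7 in darkness. The summed level of the 8 listed was 67.0 to 151 CPM at ZT3, 56.0 to 115 CPM at ZT11, 45.8 to 75.3 CPM at ZT15 and 69.7 to 179 CPM at ZT23. Its median was 97.8 CPM at ZT3 and 99.2 CPM at ZT11, so the sum was nearly level in light. The 6 gut markers tested had medians of -1.38 and 1.45, with 0 of 6 positive in light and 5 of 6 in darkness. Their summed level, with the 7 listed, was 532 to 4423 CPM at ZT3, 307 to 1294 CPM at ZT11, 388 to 7616 CPM at ZT15 and 118 to 1393 CPM at ZT23. The part of these tissues in the light and dark results was not tested.

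The count of 355 in light depended on single libraries. It was 9 with both left-out libraries put back, and 17 without Sk2-ALF ZT11, 28 without Sk2-ALF ZT3, 36 without Sk2-TRF ZT3, 42 without WT-ALF ZT11, 63 without HFD-TRF ZT11 and 68 without HFD-TRF ZT3. It was 142 without WT-ALF ZT3, 190 without WT-TRF ZT15, 201 without Sk2-TRF ZT11, 220 without HFD-ALF ZT23 and 593 without WT-TRF ZT23. The sign of all 355 held in each of these fits, and that of 353 held with both libraries put back. These fits keep most of the libraries that chose the genes, so a change of sign was unlikely from the start. In all 22 fits 14 genes were called, among them stv, unc-45, Sgt1, CG7945, Sesn, CG30118, didum, Pde11, Clk and Ugt35b. The sarcomere genes were not among the 14. With both libraries put back, didum, Clk, CG7945, Sgt1 and Ugt35b of the 14 were still called, while stv (adjusted p = 0.168), unc-45 (0.174), Sesn (0.106), CG30118 (0.162) and Pde11 (0.131) were not, nor were the 4 sarcomere genes (0.385 to 0.446).

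Gene lists were described in both contrasts beside all genes tested, whose median log2 fold change was -0.01 in light and -0.01 in darkness. Oxidative phosphorylation genes had a median of 0.41 in light, with 67 of 69 positive, 1 called higher (CG1970, a complex I subunit) and 1 called lower (CG9603, a subunit of cytochrome c oxidase), and a median of -0.21 in darkness with 1 of 69 positive. CG1970 was called in 3 of the 22 fits with 1 library left out and CG9603 in 18, and neither with both libraries put back (adjusted p = 0.535 and 0.171). Mitochondrial ribosome genes had medians of 0.22 and -0.13 with no call, and glycolysis genes medians of 0.18 and -0.19 with no call. Over dusk and dawn as a whole the medians of these 3 lists were 0.11, 0.05 and 0.02. Cytoplasmic ribosome genes had medians of -0.11 and 0.13 with no call, of 85 tested.

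Purine and folate genes had positive medians in both contrasts, 0.56 in light and 0.32 in darkness, and 9 of 10 were positive between dusk and dawn with a median of 0.40. CG11089 was called between dusk and dawn, and CG6767, the ribose-phosphate pyrophosphokinase gene, was called in light (0.64 ± 0.16 SE, adjusted p = 0.0415), though in only 6 of the 22 fits with 1 library left out. The bifunctional enzyme gene ade5 had a log2 fold change of 0.62 ± 0.15 between dusk and dawn that was not called (adjusted p = 0.0832).

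Fatty acid synthesis genes pointed the other way, with 13 of 14 negative between dusk and dawn and a median of -0.20, but none was called. The fatty acid synthase CG3523 (FASN1) had a log2 fold change of -0.58 ± 0.27 SE (adjusted p = 0.351) and the acetyl-CoA carboxylase ACC -0.35 ± 0.13 SE (adjusted p = 0.232). In the insulin, TOR and AMPK list foxo was lower and Sesn higher at dusk, and 17 of 19 genes were not called. In light, Sesn, Tor (0.41, adjusted p = 0.0394) and Pi3K92E (0.46, adjusted p = 0.0405) were called higher at ZT11, Tor in 8 and Pi3K92E in 9 of the 22 fits with 1 library left out. The lists of beta oxidation, antimicrobial peptides, glutathione transferases, proteasome, heat shock and chaperones, and muscle calcium and excitation held no call between dusk and dawn.

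**Figure D5:**
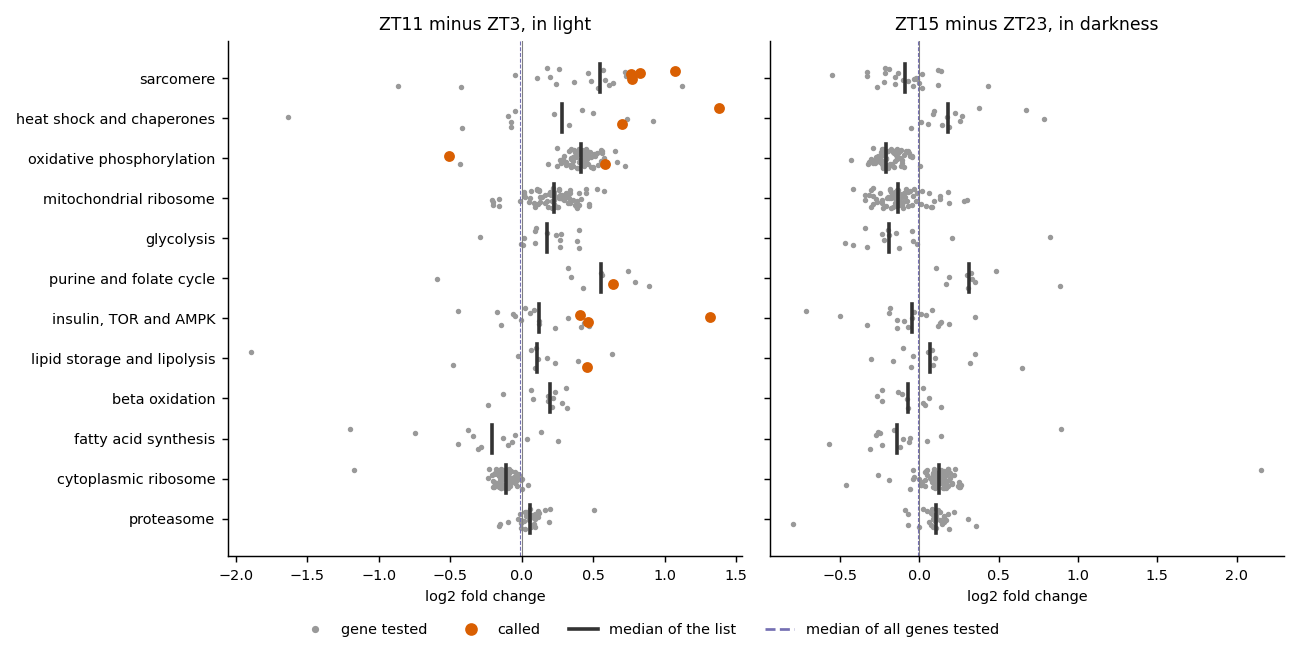
Log2 fold change of each tested member of 12 gene lists in the light contrast and in the dark contrast, with called genes in orange, the median of the list as a black bar and the median of all genes as a dashed line. Oxidative phosphorylation and sarcomere members lie to the right in light and to the left or near 0 in darkness, while purine and folate members lie to the right in both.

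No dependence on the feeding regimen was detected in these libraries. The difference between the dusk-dawn contrast of TRF and that of ALF was called for no gene by edgeR, with 198 genes (1.97%) at an unadjusted p under 0.05 and a smallest adjusted p of 0.9997, and for no gene by DESeq2. With the spread estimated over both regimens, the ALF contrast called Ugt35b (0.00992%, with 6.39% of genes at an unadjusted p under 0.05). The TRF contrast called 6 genes (0.0595%, with 8.32% unadjusted), CG11089 and Cyp12d1-p higher (0.0198%) and Ugt35b, Jhe, Clk and ZnT77C lower (0.0397%). For Ugt35b the log2 fold change was -1.98 in ALF and -1.66 in TRF, for Clk -1.10 and -1.50, and for tim 0.97 and 1.30. CG11089 had 0.43 in ALF and 1.34 in TRF, a difference of 0.91 with an unadjusted p of 0.00386 that was not called. Its highest libraries were HFD-TRF at ZT11 with 323 CPM and ZT15 with 248 CPM, and Sk2-TRF at ZT15 with 225 CPM.

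Between models the contrast of HFD and that of WT differed for no gene by edgeR, with 1275 genes (12.7%) at an unadjusted p under 0.05 and a smallest adjusted p of 0.186, and for 230 genes by DESeq2. The contrast of Sk2 and that of WT differed for 1 gene (0.00992%), pcl, a low transcript with a mean of 17.3 counts, which was not called with both left-out libraries put back (adjusted p = 0.390), and for 37 genes by DESeq2. At an unadjusted p under 0.05 stood 803 genes (7.97%). With the spread estimated over all models, the WT contrast called Ugt35b (0.00992%, with 9.37% unadjusted). The HFD contrast called Ugt35b, Vmat, Reph and CG5246 (0.0397%, with 17.3% unadjusted), and the Sk2 contrast Clk, bgm and pcl (0.0298%, with 8.53% unadjusted). The log2 fold change of Ugt35b was -2.07 in WT, -1.94 in HFD and -1.39 in Sk2, that of Clk was -1.41, -0.87 and -1.71, and that of bgm was -1.25, -0.64 and -2.06, and none of these differences from WT passed the test.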

How the data were processed

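Poly(A) RNA of IFM was sequenced as single-end reads, and the authors aligned them with STAR and counted them per gene by strand on dm6 with featureCounts. The deposited values are raw counts per gene for 16727 genes, of which 16524 names matched RefSeq. Counts were analysed with edgeR 4.0.16 (R 4.3.3). Genes passed filterByExpr, libraries were scaled by TMM, and a quasi-likelihood model with terms for group and phase was fitted to the 22 libraries. CPM values are on TMM sizes of all 36 libraries, and 2 was the prior count of log2 CPM values, not of the fits. SE is the log2 fold change divided by the root of F. Called means an adjusted p under 0.05. Named were the core clock genes, up to 12 called genes per direction with a mean count of at least 50, called list members, the 5 called genes with the highest CPM, genes called in an interaction, and Sk2. The members and lists were chosen with earlier results of these data known. Other normalization, filters, DESeq2 1.42.0, subsets and each library left out were tried. A search for promoter motifs was not run.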

Additional observations from a re-analysis of the deposited data

Results flagged for a closer look

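The dusk minus dawn difference of tim in WT-TRF, 1.94 log2 units, stood apart from those of the other 5 groups, which lay between 0.85 and 1.23. WT-TRF has a single dusk library, of ZT15, because its library of ZT11 was left out. Among the 35 genes examined in this way chance alone flags about 1 in 20.

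The difference of pcl between Sk2 and WT, -9.56 log2 units (adjusted p = 0.0136, edgeR), was flagged because the contrasts of these models differed by a test of the difference itself. Its highest values among the 22 libraries compared were 9.74 CPM in WT-TRF at ZT15 and 7.93 CPM in Sk2-ALF at ZT3, below the 25.5 CPM of WT-ALF at ZT19. It was at 0 in Sk2-ALF at ZT11 and in Sk2-TRF at ZT11 and ZT15, so the size of the fitted value is uncertain. With both left-out libraries put back the adjusted p was 0.390.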

How the results depend on the processing

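Between dusk and dawn, 27 calls became 13 with all 24 libraries, 200 with the 34 libraries of all times, 319 by DESeq2, 9 without the group term, 4 for ZT11 against ZT23 alone and 1 for ZT15 against ZT3 alone. Fits of ALF, WT, HFD or Sk2 libraries alone called 0 genes and TRF alone 1, with fewer samples in each. DESeq2 shared all 27 calls and the 34-library fit 26. Leaving out 1 library gave 9 to 74 calls. The other settings, which included a robust prior chosen after seeing the data, gave 27 to 36. The light contrast had 355 calls, 9 with all 24 libraries, 928 by DESeq2 and 17 to 593 with 1 library left out, also chosen after seeing the data. The dark contrast had 6 calls, 55 by DESeq2 and 2 to 9 with 1 library left out. DESeq2 called 230 genes for HFD minus WT and 37 for Sk2 minus WT, and 0 genes were called for Sk2 minus WT with all 24 libraries. The cause of these shifts was not tested. The study's threshold gave 917 genes, and 667 to 989 under its alternatives. Signs turned only in genes that were not called: cry (0.030) and Sk2 (0.48) for ZT11 against ZT23, Sk2 in HFD (0.18), vri in WT (-0.066), and cyc in ALF (-0.050), WT (-0.17), Sk2 (-0.0020) and with 1 library left out (-0.0080 to 0.0997, lowest without HFD-TRF ZT23). The called genes were chosen on these libraries, so their steady signs are not independent of the choice. No paired analysis was possible because the labels give no replicate numbers, and the group served as the block. Genes that peak at ZT7 or ZT19 are seen by this comparison only where their dusk and dawn levels differ. The floor of 3 counts lies at 0.0978 to 0.552 CPM in the 22 libraries.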

Other observations

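The acyl-CoA synthetase genes bgm and CG4500 (hll in current annotation) had log2 fold changes of -1.27 and 2.25 between dusk and dawn, and the second was not called (adjusted p = 0.0683). CG4500 was at 2.46 to 142 CPM at dusk and 1.59 to 9.76 CPM at dawn, with its highest values in Sk2-TRF, HFD-TRF and Sk2-ALF at ZT15. The myo-inositol oxygenase gene CG6910 (Miox) had a log2 fold change of -0.92 (adjusted p = 0.0683) at 267 to 793 CPM against 452 to 1237 CPM. These genes were chosen after their values were seen.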
